A study of Mus musculus with 14 samples.

Results

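The comparison was between lungs of mice that lack JNK1 and lungs of wild-type mice, none of them ventilated. It set 3 arrays from wild-type C57/BL6 controls against 3 from jnk1-/- controls, out of the 14 arrays of the study. These 6 were chosen by the genotype and the word control in the sample titles. Each array measured 19621 probes. The mice were adults matched for age and sex on a C57/BL6 background, the wild-type mice came from a supplier and the jnk1-/- line was made elsewhere, and whether the lines were bred together was not stated. In the jnk1-/- line the deletion is carried by all cells, so these arrays cannot tell a need for JNK1 in lung cells from one in other tissues. Controls were killed directly after anaesthesia, which all groups of the study received, and RNA was made from the frozen right lung. The other 8 arrays, from 4 ventilated mice of each genotype, entered the normalisation, the estimate of spread and the choice of the probe read for each gene. The calls between controls therefore depend on them too. Their values are otherwise used below to see whether a difference between the controls was also measured in different animals.

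JNK1 is a kinase encoded by Mapk8. MAP kinase kinases 4 and 7 phosphorylate JNK1 in cells under stress, and JNK1 in turn phosphorylates c-Jun, a subunit of the transcription factor AP-1. JNK2, encoded by Mapk9, shares many of its substrates. In lung, this pathway is known for its response to stretch, oxidants and cytokines. A comparison without ventilation asks what differs between the genotypes before any stretch is applied.

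Values are normalised log2 intensities, so a difference of 1 is a 2-fold change. A probe was called at an adjusted p under 0.05 in limma, with the spread estimated over all 14 arrays. Between the controls 408 probes were higher in jnk1-/- lungs, 2.08% of all, and 418 were lower, 2.13% of all. The median difference over all probes was 0.11, and differences below are best read against that shift. With the arrays brought only to a common median, 30.3% of the called probes were higher in jnk1-/- lungs in place of 49.4%. Of the called probes, 641 also changed more than 2-fold with no overlap between the genotypes. Over all 19621 probes, called or not, 5275 had no overlap. Counted by gene with the brightest probe of each, 305 of 13923 genes (2.19%) were higher and 256 (1.84%) were lower. The number of calls depended on single arrays. It was 245 without wild-type control replicate 2, 315 without wild-type replicate 3, and 347, 374 and 437 without jnk1-/- replicates 1, 2 and 3. It was 1136 without wild-type replicate 1, and 122 in a fit of the 6 control arrays alone. Wild-type control replicates 2 and 3 had 10.7% and 6.98% of probes at the lowest deposited value, against 1.86% to 4.52% on the other arrays. Over bright probes these 2 arrays differed by an SD of 0.312, compared with 0.597 and 0.508 when each was set against replicate 1. Likewise jnk1-/- replicates 1 and 2 stood closer to each other (0.310) than to replicate 3 (0.681 and 0.662). Whether these pairs are fully independent was not tested. Across genotypes, jnk1-/- replicates 1 and 2 stood nearer to wild-type replicate 3 (0.605 and 0.604) and replicate 1 (0.638 and 0.635) than to jnk1-/- replicate 3. From wild-type replicate 2 they stood further (0.702 and 0.711). Jnk1-/- replicate 3 stood 0.837 to 0.889 from the wild-type controls. The methods' t-test called 2 probes after adjustment, chosen here after their values were seen. One was that of Bex2, an adaptor of the brain-expressed X-linked family, at -1.74, and the other had no gene name in the table used. At an unadjusted p that test called 2311. Of 5 lung markers measured, Ager, of type 1 alveolar cells, lay between 11.6 and 12.9, Sftpb, of type 2 cells, between 9.48 and 11.4 and Pecam1, of endothelium, between 7.22 and 8.57 on the control arrays. Foxj1, of ciliated cells, and Cdh5, of endothelium, were dim, between -0.63 and 4.17 and between -0.63 and 3.31.

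The probe of Mapk8 was dim. It read 3.18, 2.63 and 3.20 in the wild-type controls and 2.10, -0.36 and 2.94 in the jnk1-/- controls. The genotypes overlapped, and the difference of -1.45 (standard error 0.88) had an adjusted p = 0.376 in limma. In the authors' normalised table the probe was at the floor, the lowest value that table holds, on all 3 jnk1-/- arrays and on 1 of 3 wild-type arrays. Where in the transcript this probe sits, and whether within the deleted part, was not stated, so its level is no check of the genotype. Other measured members of the module gave no call either. Mapk9 differed by -0.83 (adjusted p = 0.297), Map2k4 by -0.20 (adjusted p = 0.668) and Jun by -0.12 (adjusted p = 0.894, all limma). Map2k7 was not measured. Of 35 measured genes of the JNK and stress kinase cascade, 1 was higher (2.86%) and 1 was lower (2.86%). Of all genes 2.19% were higher and 1.84% lower. Dusp1, a phosphatase that inactivates JNK and p38, read 9.30, 9.17 and 9.44 in wild-type and 10.6, 10.4 and 10.7 in jnk1-/- controls, a difference of 1.26 (standard error 0.21, adjusted p = 0.00843 in limma). Mapk8ip3, a scaffold that binds JNK, was lower, with a difference of -1.19 (adjusted p = 0.0226), and its call was lost without wild-type replicate 2 or 3 or jnk1-/- replicate 1 or 2, with differences from -1.39 to -1.06 over the arrays left out. The median of the cascade was -0.09. Among 30 genes of AP-1 and of other JNK substrates, the one call (3.33%) was Fosl1, the AP-1 subunit Fra-1, at 1.96 (adjusted p = 0.00363 in limma). All 3 wild-type arrays were at the authors' floor for Fosl1, and it was not called in the authors' values (adjusted p = 0.0565 in limma). Both lists were near the shares of all genes, so nothing is read from their counts.

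The 12 largest increases that were called in both value tables with no overlap were all genes of skeletal muscle or of stratified squamous epithelium. Skeletal muscle genes encode the sarcomere, the calcium stores that drive it and the enzymes that fuel it. Squamous epithelia, such as those that line the mouth and oesophagus, make paired keratins and a protein shell called the cornified envelope. Lung parenchyma is not known for either programme. Both lists were made with these data already known, and some of their genes are examples that the study picked from the same arrays, so their counts are not independent evidence of the direction. Of 60 measured skeletal muscle genes, 18 were higher in jnk1-/- controls and none was lower, with a median of 0.84. Of 62 squamous genes, 19 were higher and 1 was lower, with a median of 1.16. Over all genes the shares were 2.19% higher and 1.84% lower and the median was 0.09. Of those examples Plod1 at 0.08 and Tbx6 at -0.75 were not called here.

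**Figure D1:**
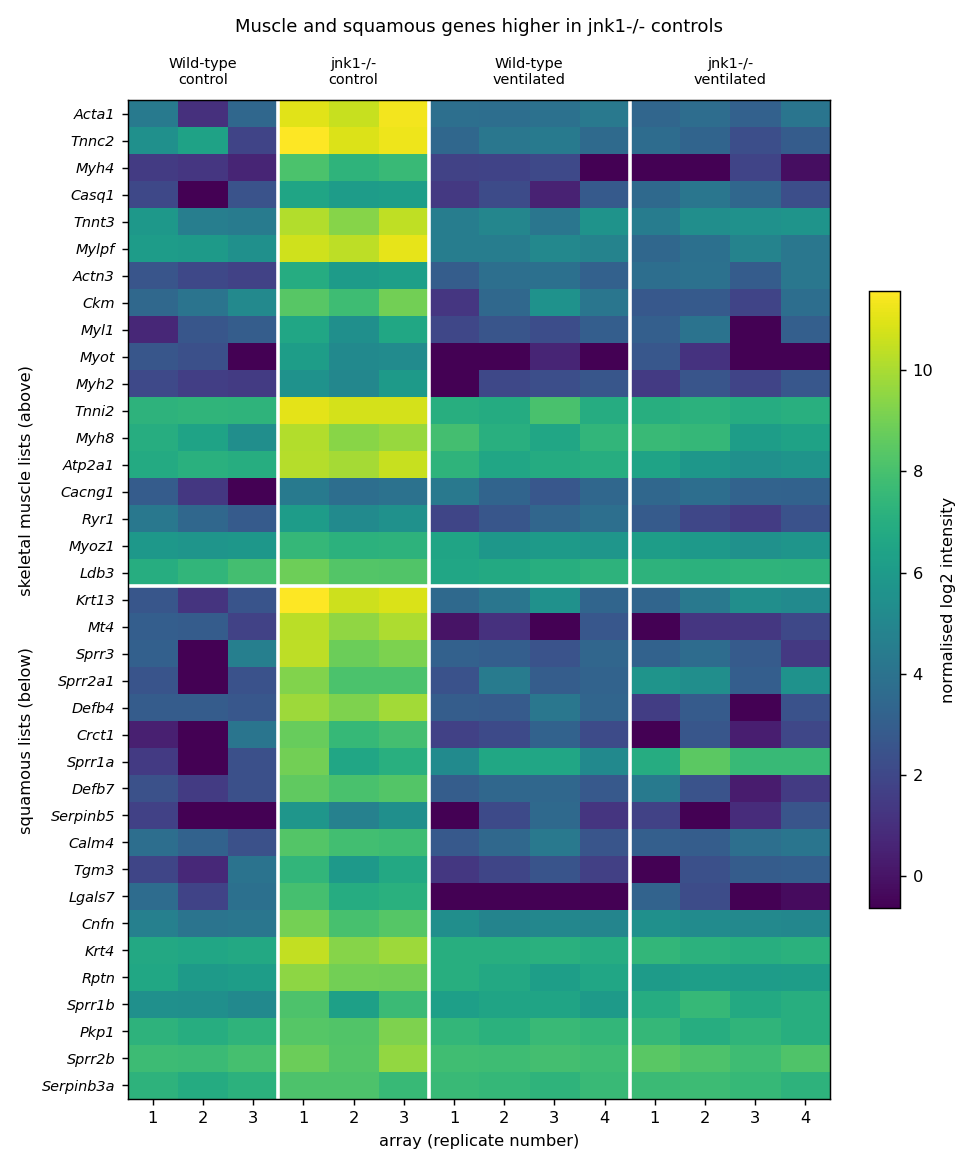
Normalised log2 intensity (colour scale) of the 18 skeletal muscle genes and 19 squamous genes that were higher in jnk1-/- controls, one row a gene and one column an array, with the 4 groups side by side. The 3 jnk1-/- control columns are the brightest in nearly every row, and the median of the 18 muscle genes was 7.54 to 8.26 there against 3.21 to 4.32 in the wild-type controls.

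Among the sarcomere genes, Acta1, the skeletal actin of the thin filament, read 4.41, 1.08 and 3.46 in wild-type and 11.0, 10.6 and 11.4 in jnk1-/- controls. The difference was 8.01 (standard error 0.63, adjusted p = 4.94e-05 in limma), and it was 7.27 in the authors' values. Mylpf, the fast phosphorylatable myosin light chain, read 6.10, 6.003 and 5.49 in wild-type and 10.7, 10.4 and 11.1 in jnk1-/- controls, which was 29.0-fold higher (95% confidence interval 17.4 to 48.1). For both genes every jnk1-/- control lay far above every wild-type control. The troponin complex, which gives the thin filament its calcium switch, was called in all 3 fast subunits: Tnni2 at 3.59, Tnnt3 at 4.99 and Tnnc2 at 6.68. Tnnc2 was uneven among the wild-type controls, with 5.49, 6.39 and 1.85. Of the slow subunits, Tnni1 at 2.51 (adjusted p = 0.089) and Tnnt1 at 0.26 were not called. Fast and slow isoforms were not compared by a test. Of the myosin heavy chains Myh4, of the fastest fibres, was at 6.53, with all 3 wild-type arrays at the authors' floor, Myh2 was at 3.82 and the perinatal Myh8 at 3.49, while the embryonic Myh3 (1.43, adjusted p = 0.39) was not called. Actn3, the actinin of fast-fibre Z discs, was at 4.29, and Myoz1, which binds actinin, at 1.51.

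Genes of calcium handling were called in 4 of 15 cases. Atp2a1, the fast-fibre calcium pump SERCA1, read 6.84, 7.13 and 6.98 in wild-type and 10.2, 9.92 and 10.6 in jnk1-/- controls, a difference of 3.24 (standard error 0.27, adjusted p = 6.89e-05 in limma). Casq1, the calcium-binding protein of the store, was at 4.99 and Ryr1, its release channel, at 2.11. Cacng1, a subunit of the voltage sensor, was at 2.83, and only at 0.58 in the authors' values, where it was not called. Ckm, the muscle creatine kinase, was at 4.16, and was 1 of 2 called on the list of 16 genes of energy metabolism. The other was Actn3, the Z disc actinin given above, which is on the thin filament list as well. None of the 8 muscle transcription factors was called, Myod1 (0.54) and Myog (-1.43) among them, and by unadjusted size they lay on both sides of 0. A list of 8 would give few calls at the shares of all genes, so nothing is read from their absence. Calls that were lost when 1 array was left out were those of Ckm, Cacng1, Ryr1, Myot and Ldb3 (in 5 of the 6 fits each) of Myl1 (in all 6) and of Myh2 (wild-type replicate 2 or 3). The count of called muscle genes was 11 without wild-type replicate 2, and between 12 and 16 without any other single array.

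Among squamous genes the keratin pair of the oral and oesophageal lining led. Krt13 read 2.61, 1.18 and 2.53 in wild-type and 11.5, 10.6 and 10.9 in jnk1-/- controls, and the difference of 8.91 (standard error 0.65, adjusted p = 3.61e-05 in limma) was the largest increase named here. Its partner Krt4 read 6.71, 6.59 and 6.74 against 10.5, 9.34 and 9.78, a difference of 3.18. Neither keratin overlapped between the genotypes, which held for 2085 of all 13923 genes in that direction. The basal-layer pair was not called, with Krt5 at 2.44 (adjusted p = 0.13) and Krt14 at 1.92 (adjusted p = 0.11), and the epidermal Krt1 (-0.45) and Krt10 (1.54) were not called either. The envelope genes gave 9 calls of 20. Cnfn, or cornifelin, read 4.69, 4.06 and 4.17 in wild-type and 9.001, 8.03 and 8.37 in jnk1-/- controls, a difference of 4.16 (standard error 0.27), 17.9-fold. The small proline-rich proteins, which are crosslinked into the envelope, were called for Sprr3 (7.07), Sprr2a1 (7.06), Sprr1a (6.49), Sprr1b (2.02) and Sprr2b (1.12). Crct1 was at 6.77, the crosslinking enzyme Tgm3 at 4.46 and Rptn, or repetin, at 2.86. On the same list loricrin (Lor, 0.45), filaggrin (Flg, 0.14) and involucrin (Ivl, -0.08) were not called.

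Defence and metal-binding genes of the same epithelia followed. Mt4, the metallothionein of squamous epithelium, read 3.03, 2.91 and 1.76 in wild-type and 10.28, 9.54 and 10.05 in jnk1-/- controls, a difference of 7.39 (adjusted p = 0.000474 in limma). The beta-defensins Defb4 (6.79) and Defb7 (6.24) were called, while Defb1 (1.69, adjusted p = 0.094) was not. Calm4, a calcium-binding protein of keratinocytes, was at 4.86. The one lower gene was the kallikrein protease Klk6, at -3.87, which was at or near the lowest values on all jnk1-/- controls, lost its call in 5 of the 6 fits that left out 1 array and was at -0.32 in the authors' values. Trp63, the transcription factor of squamous basal cells, was at 1.48 (adjusted p = 0.42). All 3 wild-type controls were at the authors' floor for 6 of the 18 muscle and 6 of the 19 squamous genes called higher. For these the size of the difference rests on values near the limit of the array. Measured from that floor the difference was 7.67 for Krt13, 6.23 for Defb4, 4.95 for Defb7, 4.26 for Myh4 and 4.05 for Sprr1a. It was 5.06 for Sprr2a1, 1.78 for Serpinb5, 2.77 for Casq1, 2.05 for Myh2, 3.09 for Actn3 and 0.58 for Cacng1. Crct1, Sprr3 and Mt4, among others, had 2 of the 3 wild-type controls at that floor. In the authors' values these were at 4.32, 5.61 and 6.52. Without wild-type replicate 2 the calls of Klk6, Lgals7, Pkp1, Serpinb3a, Serpinb5, Sprr1b, Sprr2b and Tgm3 were lost, which left 12 of the 20, and 13 were called without jnk1-/- replicate 1.

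Other tissues that lie near the lung or airway gave few calls or none. Of all genes 2.19% were called higher and 1.84% lower. Lists this short would give few calls at those shares, so the absence of calls is not read as a result. The mucous and salivary gland list had 1 lower gene of 9, Bpifa2 at -1.09 (adjusted p = 0.00792 in limma), a call that held with each array left out. Of 14 cartilage and tracheal ring genes, 7 thymus genes and 3 thyroid genes none was called, and smooth muscle had 1 lower gene of 10, Cnn1 at -1.15, a call that held only without wild-type replicate 1. With the arrays brought to a common median, and also in the authors' values, 3 of the 10 were lower. The cardiac list had 2 calls of 19, Myl3, a light chain shared with slow skeletal fibres, at 2.92 and the transcription factor Tbx20 at 1.65 (lost without wild-type replicate 2), against a median of -0.34. In whole lung RNA, more cells of a type cannot be told apart from more RNA per cell, and whether the dissected tissue held muscle or squamous epithelium from outside the lung was not tested.

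**Figure D2:**
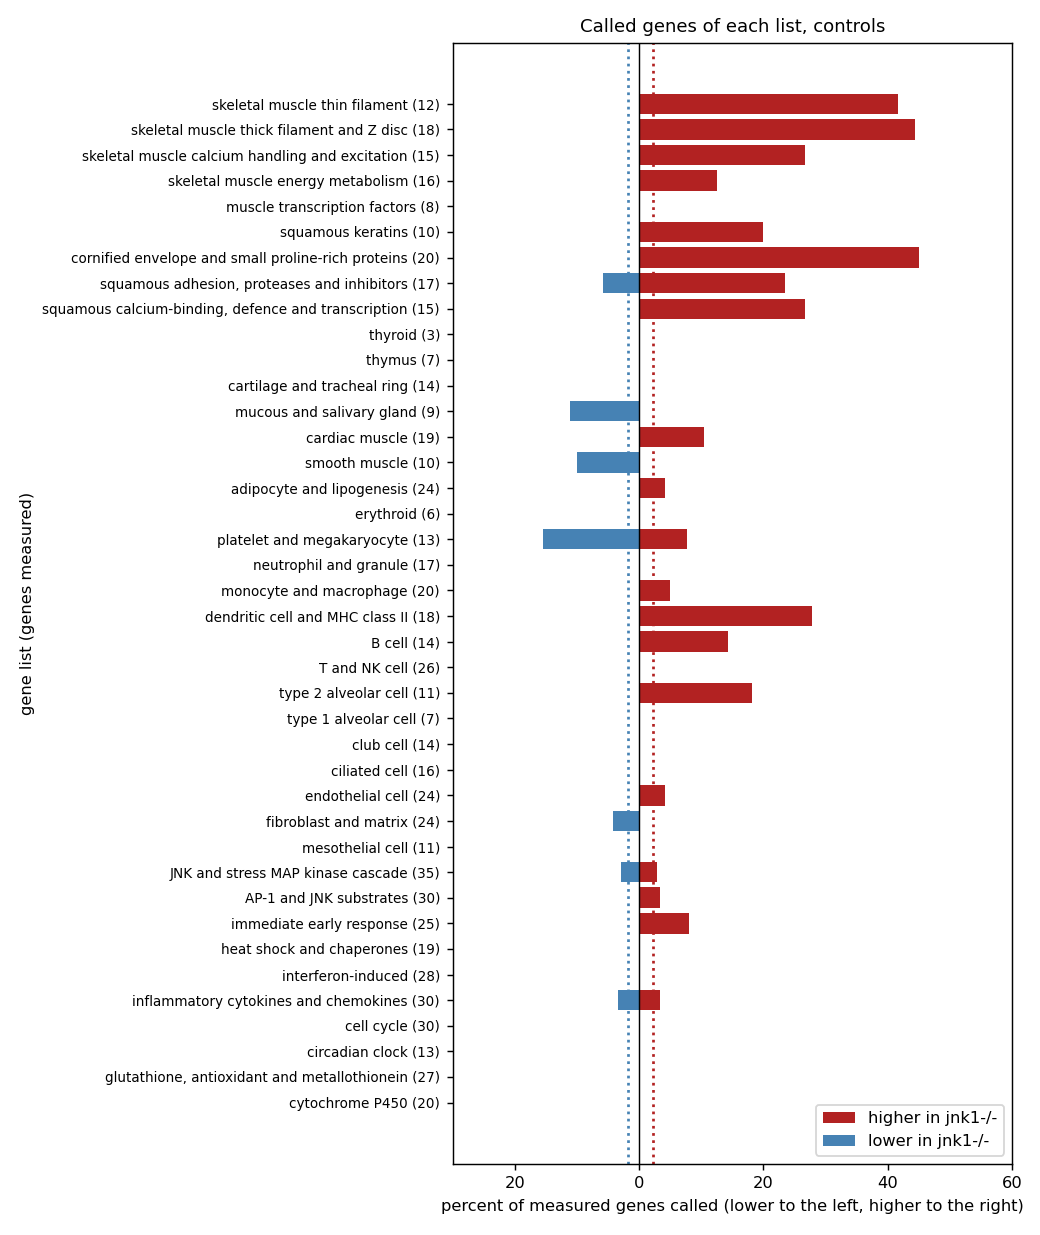
Percent of the measured genes of each of the 40 lists that were called higher (right, red) or lower (left, blue) in jnk1-/- controls, with the number measured in parentheses and dotted lines at the shares of all genes (2.19% and 1.84%). The envelope genes reach 45.0% on the right, and 27.8% of the dendritic cell and MHC class II list were higher.

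The promoters of 2 genes of each group, those with the lowest adjusted p that have a promoter sequence, are shown because these genes moved together. They are the 250 bases before the RefSeq start on GRCm38.p6, 5′ to 3′ on the strand of the gene. Capitals mark matches on either strand to TGANTCA (the AP-1 site), CANNTG (the E box that MyoD-type factors bind), the CArG box of serum response factor and TATAAA. Mylpf is on the plus strand at chr7:127211358-127211607, Acta1 on the minus strand at chr8:123894776-123895025, Cnfn on the minus strand at chr7:25369725-25369974 and Krt13 on the minus strand at chr11:100121567-100121816.
Mylpf: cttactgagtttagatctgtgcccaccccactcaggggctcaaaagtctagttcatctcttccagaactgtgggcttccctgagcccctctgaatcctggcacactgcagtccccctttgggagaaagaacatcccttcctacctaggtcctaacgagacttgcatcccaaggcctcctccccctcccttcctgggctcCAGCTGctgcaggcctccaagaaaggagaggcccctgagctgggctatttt
Acta1: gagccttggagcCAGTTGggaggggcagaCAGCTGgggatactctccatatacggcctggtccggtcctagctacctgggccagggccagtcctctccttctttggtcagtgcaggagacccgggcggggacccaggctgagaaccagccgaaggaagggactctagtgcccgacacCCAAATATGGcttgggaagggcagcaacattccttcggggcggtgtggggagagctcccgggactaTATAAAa
Cnfn: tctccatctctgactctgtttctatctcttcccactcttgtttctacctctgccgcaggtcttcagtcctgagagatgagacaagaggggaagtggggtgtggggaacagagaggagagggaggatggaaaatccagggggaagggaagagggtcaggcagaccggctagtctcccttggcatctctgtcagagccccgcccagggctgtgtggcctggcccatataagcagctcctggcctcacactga
Krt13: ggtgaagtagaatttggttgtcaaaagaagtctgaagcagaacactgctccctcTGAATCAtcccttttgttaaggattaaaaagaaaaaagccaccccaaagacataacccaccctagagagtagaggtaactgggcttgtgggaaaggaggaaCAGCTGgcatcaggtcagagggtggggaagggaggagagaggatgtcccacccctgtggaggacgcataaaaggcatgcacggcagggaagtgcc
Mylpf held 1 E box and Acta1 held 2, with a CArG box and TATAAA as well. Krt13 held 1 match to the loose AP-1 form, TGAATCA, and 1 E box, and Cnfn held none of the 4 motifs. Over windows that also take in the 50 bases after the start, TGANTCA was in 6 of 15 promoters of called squamous genes. They were those of Krt13, Rptn, Serpinb5, Sprr1a, Sprr1b and Sprr2b. TGANTCA was also in 1 of 12 promoters of called muscle genes (Ldb3) and in 6.82% of the 11080 promoters of measured genes. The CArG box was in 3 of the 12 muscle promoters (Acta1, Ldb3 and Myh4), in none of the squamous ones and in 1.49% of all. The E box, in 66.6% of all promoters, was in 9 of the 12 muscle and 12 of the 15 squamous ones. TATAAA was in 5 of 12 and 9 of 15, against 11.3% of all. These matches describe the letters and say nothing of whether a factor was bound.

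Beyond these groups, 25 of 556 genes on the other lists were called, 18 higher (3.24%) and 7 lower (1.26%), against 2.19% and 1.84% of all genes, with a median of 0.13. Of 18 genes on the dendritic cell and MHC class II list, 5 were called, all higher and all of the MHC class II pathway, which presents antigen to helper T cells. With arrays brought only to a common median 2 were called and the median of the list fell from 0.87 to 0.50, and 8 were called in the authors' values. Cd74, the invariant chain, read 12.38, 12.03 and 12.16 in wild-type and 13.7, 13.4 and 13.7 in jnk1-/- controls, a difference of 1.42 (standard error 0.23, adjusted p = 0.00783 in limma). H2-Ab1 was at 1.43, H2-Eb1 at 1.26, H2-DMa at 1.15 and H2-Aa at 1.05. These 4 calls were lost without wild-type replicate 2 or 3 or jnk1-/- replicate 1, and that of Cd74 was not. The genotypes did not overlap for any of these genes. That held for 2085 of all 13923 genes in the same direction, so nothing is read from it. Ciita, the transcription factor that switches the class II genes on, was at 0.05. Of 14 B cell genes 2 were called, Cd79a, a part of the B cell receptor, at 1.43 and Jchain, which joins secreted antibodies, at 3.68. Jchain read 8.95, 5.15 and 8.63 in wild-type and 11.5, 11.5 and 10.7 in jnk1-/- controls, and both calls were lost without jnk1-/- replicate 2. Of 26 T and NK cell genes none was called, and their median was 0.31.

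Sftpb, the surfactant protein that type 2 cells need to spread the surface film, read 9.48, 9.51 and 9.69 in wild-type and 11.3, 11.4 and 11.4 in jnk1-/- controls. The difference was 1.80 (standard error 0.32, adjusted p = 0.0115 in limma), 3.48-fold. The other call of 11 type 2 genes was Fabp5, a fatty acid carrier, at 0.83, which was lost without most single arrays. Sftpd (0.70), Sftpa1 (0.27) and Abca3 (0.30) were not called, and the median of the list, 0.68 here, was 0.17 when arrays were only brought to a common median. Of the early response genes Klf4 (1.01) and Ier2 (0.76) were called of 25, and both calls were lost whichever control array was left out. Platelet genes were called lower for Ppbp, the chemokine of platelet granules (-1.61), and Treml1 (-1.92), and higher for Itgb3 (1.42), whose wild-type values were all at the authors' floor. Of these 3 calls, that of Ppbp held with each array left out. Among 30 cytokine genes, Ccl20, which attracts cells that bear CCR6, read 1.13, -0.63 and 1.11 in wild-type and 7.02, 5.76 and 5.43 in jnk1-/- controls (difference 5.53, adjusted p = 0.00911 in limma), with no call in the authors' values (adjusted p = 0.105). All 3 wild-type controls were at the authors' floor, and measured from it the difference was 2.57. Ccl19, a chemokine of lymphoid tissue, was lower, at -2.34, a call lost without wild-type replicate 2 (adjusted p = 0.0511). No gene was called among the 28 interferon-induced, 30 cell cycle, 27 antioxidant, 20 cytochrome P450, 19 heat shock and 13 clock genes. At the shares of all genes, 2.19% higher and 1.84% lower, such lists would give few calls, so nothing is read from this. With arrays brought only to a common median, 3 interferon-induced, 1 antioxidant and 1 cytochrome P450 gene were called lower.

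The ventilated mice are different animals of the same 2 lines, so they give a second measurement of the genotype difference. Of the 561 genes called between controls, 385 (68.6%) differed in the same direction after ventilation, against 56.4% of all genes, and 40 were called there in that direction and none in the other. After ventilation 84 of 13923 genes (0.603%) were called in all, and those 40 are 0.287% of all genes. For 45 of the 561 genes the difference itself changed past the threshold between control and ventilated mice, where 0.366% of all genes did. That change contains the difference between controls on which the genes were chosen, so these counts are in part set by the choice and nothing is read from them. Of these 45, 33 had been higher in jnk1-/- controls, and 19 were of the muscle or squamous lists. The remaining 476 genes were called neither after ventilation nor for the change.

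**Figure D3:**
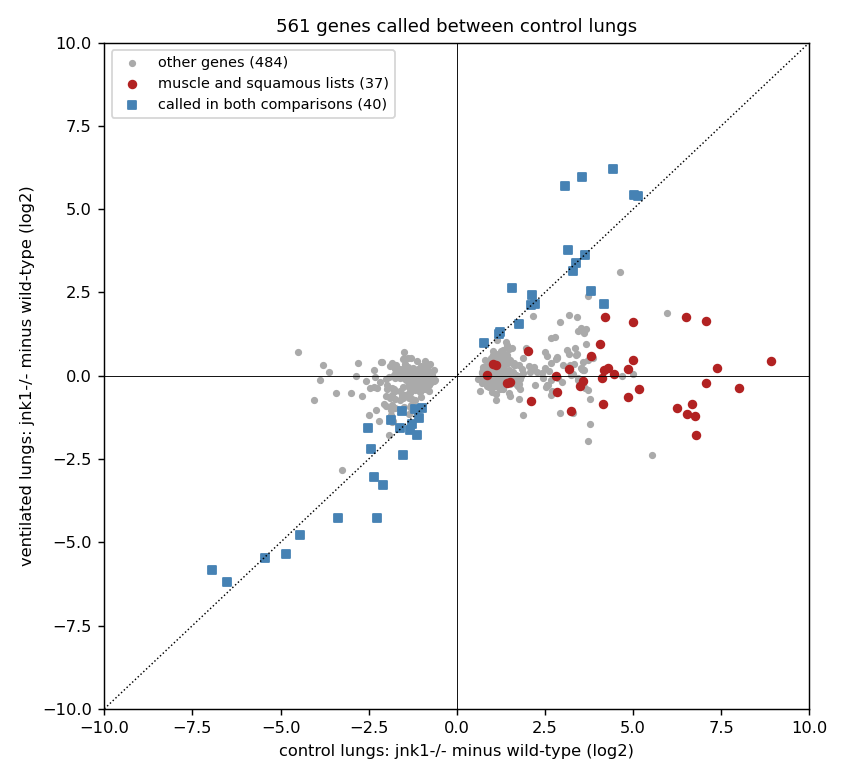
The log2 difference between jnk1-/- and wild-type lungs in ventilated mice (y axis) against that in controls (x axis) for the 561 genes called between controls, with a dotted line where both are equal. The 37 muscle and squamous genes (red) spread along the x axis near 0 on the y axis, while the 40 genes called in both comparisons (blue squares) follow the dotted line.

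None of the 37 muscle and squamous genes was called after ventilation. Over the 18 muscle genes the median difference was -0.17 there, and over the 19 squamous genes 0.16. The median level of the 18 muscle genes lay between 3.64 and 4.04 on the ventilated wild-type arrays and between 3.19 and 3.93 on the ventilated jnk1-/- arrays, close to the wild-type controls. Acta1 read 3.83, 3.78, 3.92 and 4.28 in ventilated wild-type and 3.38, 3.75, 3.14 and 4.10 in ventilated jnk1-/- mice. Krt13 read 3.53, 4.17, 5.52 and 3.35 against 3.35, 4.32, 5.42 and 5.21. The high levels were thus measured on the 3 jnk1-/- control arrays, and on none of the other 11 for these 2 genes. The median of the 19 squamous genes lay between 3.14 and 4.30 in ventilated wild-type and between 3.82 and 5.02 in ventilated jnk1-/- mice. Sprr1a stayed high in jnk1-/- mice, with 8.96, 6.59 and 7.06 in controls and 6.94, 8.48, 7.59 and 7.59 after ventilation. In wild-type mice it read 1.42, -0.63 and 2.34 in controls and 5.19, 6.64, 6.60 and 5.17 after ventilation. The change of the genotype difference was 8.37 for Acta1 (adjusted p = 0.00114), 8.47 for Krt13 (adjusted p = 0.00117), 5.50 for Mylpf and 4.00 for Cnfn, and it was called for 10 of the 18 muscle and 9 of the 19 squamous genes, counts that the choice of genes likewise sets in part. Sftpb, with 10.6, 9.47, 10.3 and 9.51 in ventilated jnk1-/- mice, and Cd74 (0.62 after ventilation) had no called change (adjusted p = 0.0971 and 0.29).

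The 40 genes called in both comparisons were of another kind. They were chosen by their calls in both, after the values were seen, so their similar size in the 2 comparisons is in part set by the choice. The comparisons share no array, but both used the same normalisation and the same estimate of spread. In the controls 19 were higher in jnk1-/- lungs and 21 lower, with no overlap between the genotypes for any of the 40, and 37 were also called in the authors' values. Of all 13923 genes, 2085 were higher and 1823 lower without overlap, and 409 were called higher and 453 lower in the authors' values. The counts for the 40 follow in part from their choice by calls, so nothing is read from them. The difference was not called as changed for any of them. Rpl29, a protein of the large ribosomal subunit, read 7.23, 7.42 and 6.67 in wild-type and 12.02, 11.91 and 12.47 in jnk1-/- controls, a difference of 5.03 (standard error 0.28, adjusted p = 5.98e-06 in limma). After ventilation it read 7.09, 7.27, 7.39 and 7.03 in wild-type and 12.73, 11.98, 12.95 and 12.86 in jnk1-/- mice, a difference of 5.43. The 2 genotypes were thus about 5 log2 units apart in both settings, with a range inside each group of under 1. Ribosomal protein genes have many near-identical copies, so which copy the probe read is uncertain.

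Cap1, which recycles actin monomers, read 5.91, 5.59 and 5.57 against 9.16, 9.08 and 8.94 in the controls, a difference of 3.37, and differed by 3.40 after ventilation. Gdpd3, a lysophospholipase, differed by 3.63 in both. Itga9, the integrin alpha 9 chain, was at 3.15 and 3.78, and Ang, or angiogenin, at 4.42 and 6.20. S100a10, the partner of annexin A2, was at 2.11 in both. On the lower side, Ankrd33b, an ankyrin repeat protein, read 9.26, 9.24 and 8.85 in wild-type and 3.12, 2.23 and 2.44 in jnk1-/- controls, a difference of -6.52 (standard error 0.35, adjusted p = 5.98e-06 in limma), and differed by -6.19 after ventilation. Polr2k, a small subunit shared by the RNA polymerases, read 7.64, 7.77 and 7.82 against -0.63, 1.88 and 1.14, with all 3 jnk1-/- controls at the authors' floor. Its difference was -6.95, and -4.34 in the authors' values. Amacr, a racemase of branched fatty acids, was at -4.84 and Ttl, the ligase that adds tyrosine to tubulin, at -3.37. Norad, a noncoding RNA, was at -4.45, with all 3 jnk1-/- controls at the authors' floor, and at -2.21 in the authors' values. The calls of Amacr and Norad between the controls were lost without wild-type replicate 2 or 3 or jnk1-/- replicate 1, among others.

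**Figure D4:**
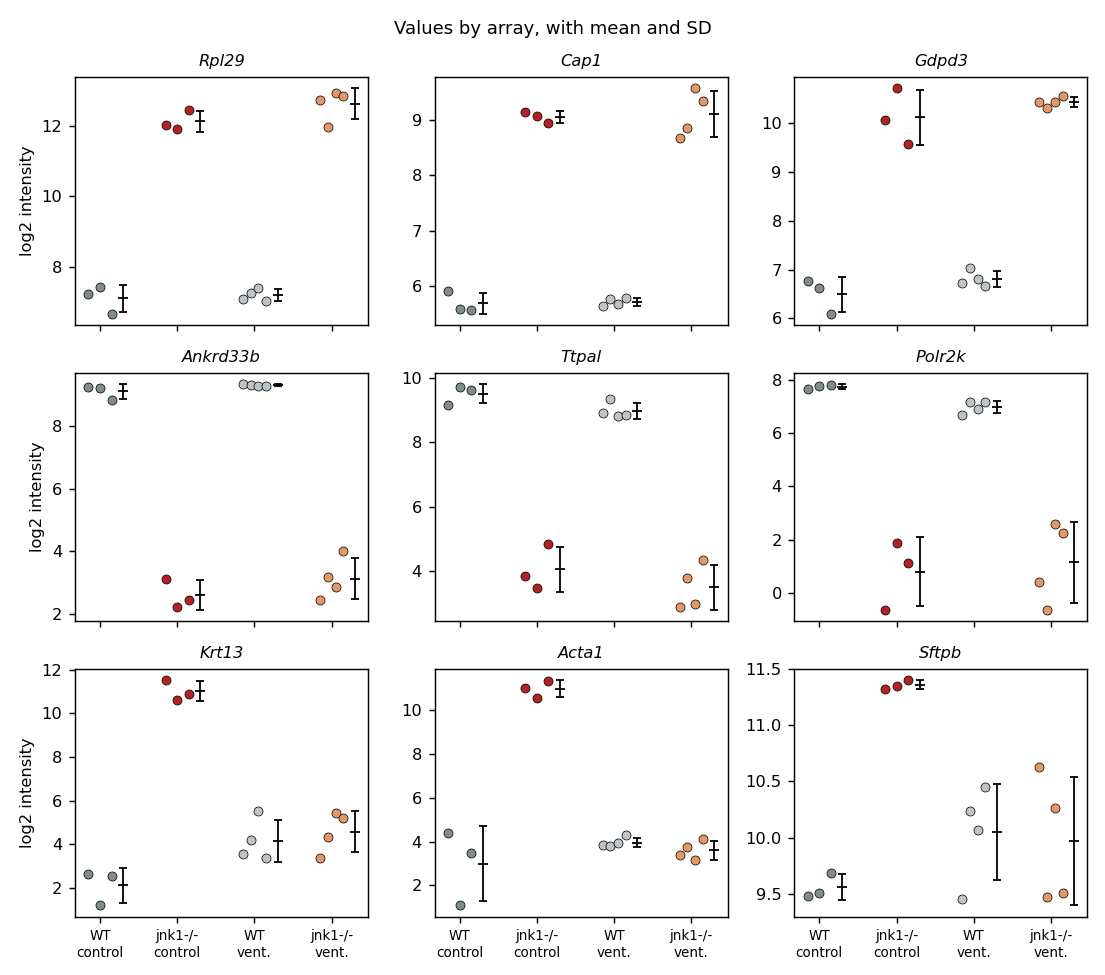
Normalised log2 intensity of 9 genes on each array (points) in the 4 groups, with the mean and SD beside them, 3 control and 4 ventilated arrays a genotype. Rpl29, Cap1, Gdpd3, Ankrd33b, Ttpal and Polr2k separate the genotypes in controls and in ventilated mice alike, whereas Krt13, Acta1 and Sftpb do so in the controls.

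Where a gene had several probes, the probes often disagreed. Ttpal, a relative of the vitamin E transfer protein, was lower on both of its probes, at -5.45 and -3.57 in the controls and at -5.48 and -2.40 after ventilation, and was called each time. For Ttl the brightest probe was at -3.37 and the others at -0.84 and -0.94 (adjusted p = 0.115 and 0.211). The second probe of S100a10 was at 0.83 (adjusted p = 0.346), that of Trio at -0.48 where the brightest was at 2.14, that of Nipal2 at -0.18 against -1.31 and that of Rsph3a at 0.33 against 1.19. None of these second probes was called. The level of such a gene as a whole is therefore uncertain, and the value belongs to the probe. Ccl19 and Ccl27a, both lower, also belong to a chemokine cluster with near-identical copies in the mouse, and Igh (4.19 in the controls, 2.15 after ventilation) stands for a whole locus of antibody heavy chains.

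Placed by the RefSeq genes of GRCm38.p6, which may not be the build the array was made on, the 40 genes lay on 12 chromosomes. Their positions were not compared with chance. With runs defined, after the positions were seen, as genes at most 50 measured genes apart, 19 of the 40 lay in 6 runs. Each run begins and ends with a gene called in both comparisons, so the counts of calls inside it are in part set by how it was drawn. Over all 13732 placed genes, 549 (4.00%) were called between controls and 84 after ventilation. The longest was on chromosome 15, where Amacr, Trio, Ankrd33b, Snord123, Nipal2 and Polr2k fell within 45 measured genes, and all 6 genes called between controls in that stretch were called after ventilation too. Of these, Trio was higher in jnk1-/- lungs and the other five were lower. On chromosome 4, Ccl27a (-1.85), Ccl19 (-2.34) and Vcp (1.22), an ATPase that unfolds proteins, lay within 8 measured genes, and 3 genes of that stretch were called in each comparison. On chromosome 2, Ccm2l, Eif6, Norad and Ttpal lay within 92, a stretch with 9 genes called between controls and 5 after ventilation. Smaller runs were Ang and Supt16 on chromosome 14, Scoc and Ier2 on chromosome 8 and Sorl1 and Mcam on chromosome 9. The runs on chromosomes 14 and 9 each held 3 genes called between controls and 2 after ventilation, and that on chromosome 8 held 2 of each. Calls of Trio, Vcp, Ier2, Mcam, Scoc and Supt16 between the controls were each lost in at least 3 of the 6 fits that left out 1 array, and that of Sorl1 without wild-type replicate 2.

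**Figure D5:**
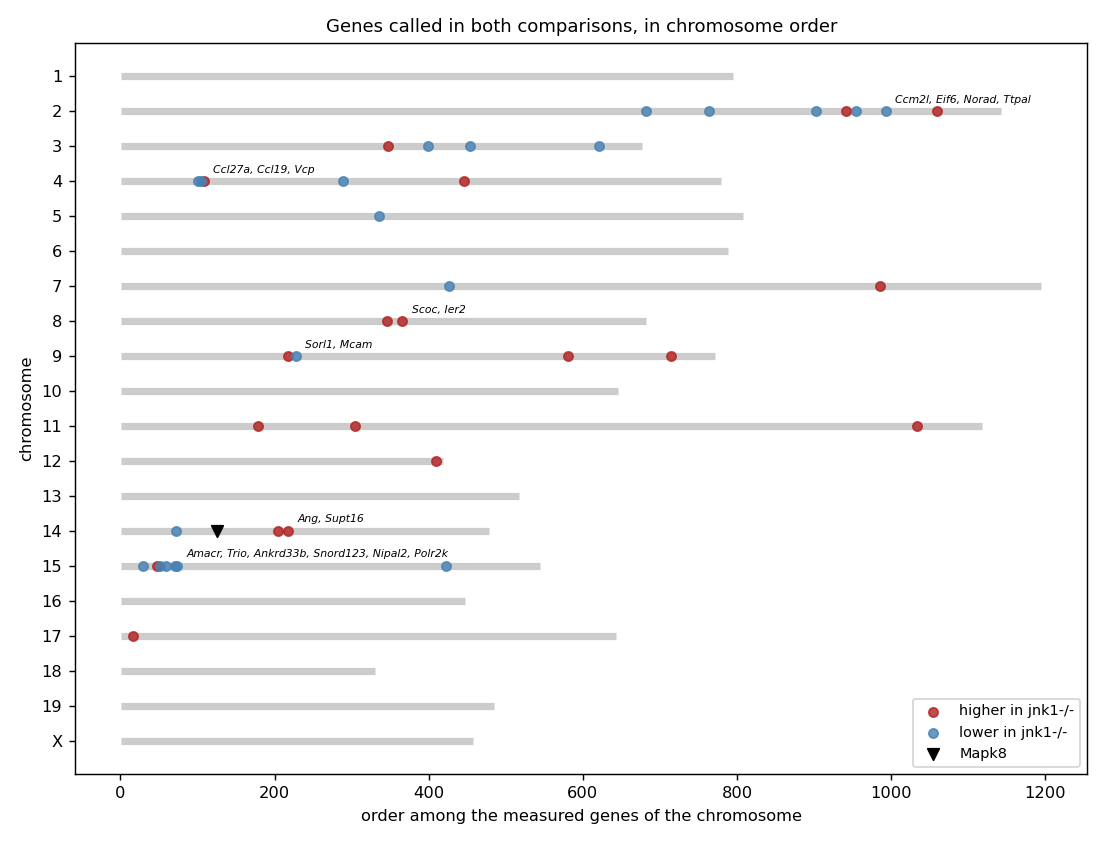
The 40 genes called in both comparisons (red higher, blue lower in jnk1-/- controls) by their order among the measured genes of each chromosome (grey bars), with runs of 2 or more named and Mapk8 marked. Chromosome 15 holds 7 of the 40 (1.29% of its measured genes) and a run of 6, and chromosome 2 also holds 7 (0.613%), against 0.287% of all genes. Chromosome 14 holds 3 (0.628%), namely Tmem254a, Ang and Supt16, none of them within 50 measured genes of Mapk8.

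Around Mapk8 itself, at place 126 of 478 measured genes on chromosome 14, 6 of the 50 nearest genes were called between controls, against 4.00% of the 13732 placed genes. On the lower side were Stab1, a scavenger receptor (-1.01), Tmem273 (-1.29) and Anxa8, an annexin (-1.36), and on the higher side Ldb3, a Z disc protein on the muscle list (1.04), Cdhr1, a cadherin of photoreceptors (1.61), and Nrg3, a neuregulin (1.07). All 6 were called with adjusted p of at least 0.0128, none was called after ventilation, and each call was lost without at least 2 of the 6 single arrays. Of the same 50, 2 others were called after ventilation, where 84 of the placed genes were. Among the 10 genes on each side of Mapk8, 2 were called between controls, and 8 of the 100 nearest were.

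The largest decreases held genes of both kinds. Of the 12 largest that passed in both value tables, 7 were probes of the 6 genes Polr2k, Ankrd33b, Ttpal, Amacr, Norad and Ttl, called in both comparisons. The other five were Atp7a, Lgals2, Klhl21, Tymp and Abcd2. Atp7a, a copper transporter, read 6.19, 6.86 and 6.14 in wild-type and 2.10, 1.87 and 1.72 in jnk1-/- controls, a difference of -4.50 (adjusted p = 0.00234 in limma). All 3 jnk1-/- controls were at the authors' floor, and in the authors' values it was -2.99. The gene differed by 0.72 after ventilation, a called change (adjusted p = 0.0186). Klhl21, an adaptor of a ubiquitin ligase, read 9.51, 10.2 and 10.0 against 7.17, 7.13 and 6.82, a difference of -2.86 that was -0.02 after ventilation, again a called change (adjusted p = 0.022). Its second, dim probe was at 0.92. Tymp, the thymidine phosphorylase, was at -3.44 in the controls and -0.51 after ventilation. Lgals2, a galectin, read 8.34, 8.64 and 8.73 in wild-type and 6.82, 4.19 and 2.54 in jnk1-/- controls with a wide spread in the latter, and its call was lost without jnk1-/- replicate 2 or wild-type replicate 2 or 3. Abcd2, a peroxisomal carrier of very long fatty acids, was at -3.27 in controls and -2.84 after ventilation, where its adjusted p was 0.111, and its call between controls was lost in 4 of the 6 fits that left out 1 array.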

How the data were processed

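Lung RNA of 6 control mice (3 a genotype) was measured on single-colour CodeLink arrays, and 8 arrays of ventilated mice entered the same fit. Per array, the authors deposited log2 intensities that were not yet on a common scale (minimum -6.86). A second table holds their log2 values after cyclic loess, in which 24.5% of entries sit at a floor of 3.12. Quality flags were not used here.

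Cyclic loess between each pair of arrays was run on the deposited values (R 4.3.3, span 0.7, 3 rounds), leaving entries at the minimum out of the curves, and low values were raised to the 1st percentile (-0.63). The 4 group means were fitted with limma 3.58.1, lmFit and eBayes, and p-values were adjusted by Benjamini-Hochberg over the whole array (threshold 0.05). All adjusted p are from limma. The methods' t-test is Welch's, run as an alternative. Of the probes, 15353 name 1 gene, 91 several and 4177 none. A gene was read by its brightest probe, and genes were placed by RefSeq (GRCm38.p6). The 40 lists hold 829 genes. Genes were named if among the 12 largest differences each way that passed in both tables without overlap, among the first 6 called of a list, in the JNK module, called within 25 genes of Mapk8, or called in both comparisons. Further list members are given beside their family and were picked after their values were seen. The members and lists were chosen with earlier results of these data known. Precision is limited by how few arrays there are, and each array is 1 animal by the design text, so p-values cover the spread between the lungs of single mice. The steps were run on simulated data with independent errors and with changes placed only in probes above the median. That simulation does not cover differences near the floor or arrays that resemble each other. Alternatives for normalisation, value table, test, arrays, dim probes, floor, block, weights and replicates were tried. Figures were drawn with matplotlib 3.10.9.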

Additional observations from a re-analysis of the deposited data

Results flagged for a closer look

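For 23 of the named genes the genotype difference between controls and that between ventilated mice differed past the threshold, by the interaction contrast in limma. The values are the difference in controls minus that in ventilated mice, on the log2 scale. Among muscle genes they were 8.37 for Acta1, 7.69 for Myh4, 7.54 for Tnnc2, 5.50 for Mylpf, 4.52 for Tnnt3, 4.30 for Atp2a1, 4.05 for Actn3, 3.82 for Myh8, 3.76 for Tnni2 and 1.69 for Myoz1. Among squamous genes they were 8.57 for Defb4, 8.47 for Krt13, 7.96 for Crct1, 7.22 for Defb7, 7.17 for Mt4, 4.65 for Calm4, 4.00 for Cnfn, 3.35 for Rptn and 2.99 for Krt4. Of the rest, Ccl20 was at 7.92 (all 3 wild-type controls at the authors' floor), Atp7a at -5.22 (all 3 jnk1-/- controls at that floor), Tymp at -2.94 and Klhl21 at -2.84. Each of the 10 muscle and 9 squamous genes was higher in jnk1-/- than in wild-type lungs in the controls and was not called after ventilation. The genes were chosen on the difference between controls, which the contrast contains. The control groups of 3 arrays were not tested for outlying arrays, and the median levels of the muscle and squamous lists in the ventilated groups of 4 showed none by Dixon's criterion.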

How the results depend on the processing

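Under every normalisation tried and with the authors' normalised values, no called named probe changed direction. Of the named called probes, 107 in all, 87 remained called under quantile normalisation, 99 under the fast cyclic loess, 93 under median centring and 98 in the authors' values. None remained in the methods' t-test and 42 in the 6 control arrays alone. The call of 58 held with each control array left out in turn, and 27 held under every alternative but the methods' t-test. The difference of Jun, not called, lay between -0.28 and 0.0054 with single control arrays left out, the latter without jnk1-/- control replicate 3. The cause of these shifts was not tested.

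Counts are given as all probes, higher, lower, stringent list, muscle, squamous and other-list genes, and were 826, 408, 418, 641, 18, 20 and 25. Leaving out single control arrays gave 245 to 1136 probes, 133 to 689 higher, 112 to 447 lower, 237 to 989 on the stringent list, and 11 to 16 muscle, 12 to 21 squamous and 10 to 30 other genes. The 6 control arrays alone gave 122, 68, 54, 122, 10, 9 and 5, and the methods' t-test after adjustment gave 2, 0, 2, 2, 0, 0 and 0 (2311 probes at an unadjusted p). Array weights gave 2232 probes, 1284 higher, 948 lower, 1076 stringent and 67 other genes. Median centring gave 1301 probes, 907 lower, 1054 stringent and 38 other genes. The authors' values gave 1183 probes with 653 lower. Without dim probes 650 were lower and 47 other genes were called. Leaving out both wild-type controls 2 and 3, chosen after seeing the data, gave 198, 149, 49, 198, 10, 12 and 4, with the lone array assumed to vary like the other groups. The remaining counts, under quantile normalisation, the fast cyclic loess, no floor, a higher floor and the mean of all probes of a gene, were within 1.5 times the values given first.

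With the replicate number as a block, 392 probes were called, 193 higher and 199 lower, with 373 on the stringent list and 13 other-list genes. The controls of the 2 genotypes share only a number, with correlations of 0.032, -0.003 and -0.002.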
